A study of Danio rerio with 2 samples.

Results

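Genes of the axon guidance ligands and receptors were compared between 2 zebrafish RNA-sequencing libraries, a pool of whole embryos and a pool of livers dissected from adult fish. Features were taken by name (Slit, Robo, netrin, Unc5, Dcc, semaphorin, plexin, neuropilin, ephrin A and B, and Eph A and B genes), which gave 65 of the 27098 gene features, under 58 names. Of these names, 6 were held by 13 features (dcc, epha4a, plxna1, robo2, sema6a and unc5c), and such features are numbered below by exon length, the longest being number 1. The name unc50 matches by its letters only: it encodes a Golgi trafficking protein and no netrin receptor, and its values are given apart.

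Both groups were exposed to hepatotoxicants before RNA was isolated, and no unexposed library was analysed here. Embryos and adults were held for 48 h with 9 compounds, namely valproic acid, amiodarone, paraquat, chlorpromazine, acetaminophen, tetracycline, cyclosporine A, thioacetamide and 17a-ethynylestradiol. An embryo sample was made of 15 embryos, and RNA of all samples of a source went in equal amounts into its pool, so that no value belongs to any particular compound. The labels name no strain, embryo age or sex. The embryo library held 11408727 counts and the liver library 13020149. As each source had 1 library, no test could be made, and bracketed 95% intervals hold counting error alone.

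Guidance ligands are secreted or membrane-bound proteins that attract or repel growing axons and migrating cells. Slits signal through Robo receptors, netrins through Dcc and Unc5 receptors, class 3 semaphorins through complexes of neuropilins and plexins, other semaphorins mostly through plexins directly, and ephrins through Eph receptor tyrosine kinases, with signalling also back into the ephrin-bearing cell. The same families act outside the nervous system, in blood vessel branching and in epithelia.

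Marker genes of hepatocytes and neurons lay as the labels of the pools imply, but the liver pool also held pancreas and gut markers. The 7 hepatocyte markers found summed to 83852 CPM (counts per 1000000 counts) in liver and 2836 CPM in the embryo pool. The 5 pancreas and gut markers summed to 519 CPM in the liver pool, where 4 reached 10 counts, and 2494 CPM in embryos. The 12 neuronal markers summed to 2739 CPM in embryos and 6.37 CPM in the liver pool, where elavl3, stmn2a, nefma and isl1 had no count and 4 of the 12 reached 10 counts. The 7 glial markers summed to 740 CPM in embryos and 12.7 CPM in the liver pool, of which fabp7a held 9.98 CPM. There 3 of the 7 reached 10 counts and sox10 was at 0. Markers of other tissues were also far higher in embryos. Muscle markers summed to 40856 CPM in embryos and 5.30 CPM in the liver pool, skin markers to 11903 and 66.5 CPM, and stellate and fibroblast markers to 4678 and 51.1 CPM. By contrast the 8 endothelial markers summed to 123 CPM in embryos and 93.4 CPM in the liver pool, none of them at 0. Of that liver sum kdrl held 47.8 CPM, against 22.7 CPM in embryos, while the other 7 were lower in the liver pool, among them fli1a at 35.5 and 10.7 CPM and stab2 at 8.59 and 0.845 CPM, and the trimmed-mean scaling described below turned each of these 7 but fli1a and stab2. Macrophage markers summed to 39.4 CPM in embryos and 38.6 CPM in the liver pool. Cholangiocyte markers summed to 482 and 835 CPM, the higher liver sum being due to krt18, and blood markers to 26.7 and 196 CPM, due to hbaa1 and hbba1. Whether the guidance genes follow these cell types was not tested, and in such bulk samples fewer cells of a type cannot be told apart from less RNA per cell.

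Most guidance genes were higher in the embryo pool, and none was called higher in the liver pool. Calls required a ratio of CPM whose whole interval was 4-fold or more, and 10 counts or more in the higher pool. At least 10 counts in either pool were found for 62 of the 65 features, all 62 of them through the embryo pool, and 48 features reached that level in the liver pool. Of the 62, 35 (56.5%) were called higher in the embryo pool, where 30.9% of all 21750 measured features were so called. None was called higher in the liver pool, against 3.35% of all measured features. On the log2 scale, liver over embryo, the 62 features had a median ratio of -2.82 and all measured ones -1.60, and 46 of the 62 lay below the latter. The interval excluded 1 on the embryo side for 58 features (75.1% of all measured features did so) and on the liver side for plxnb2a and plxnc1, where 12.7% of all measured features lay, and it held 1 for sema4g and plxnb1b (12.2% of all measured features).

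**Figure D1:**
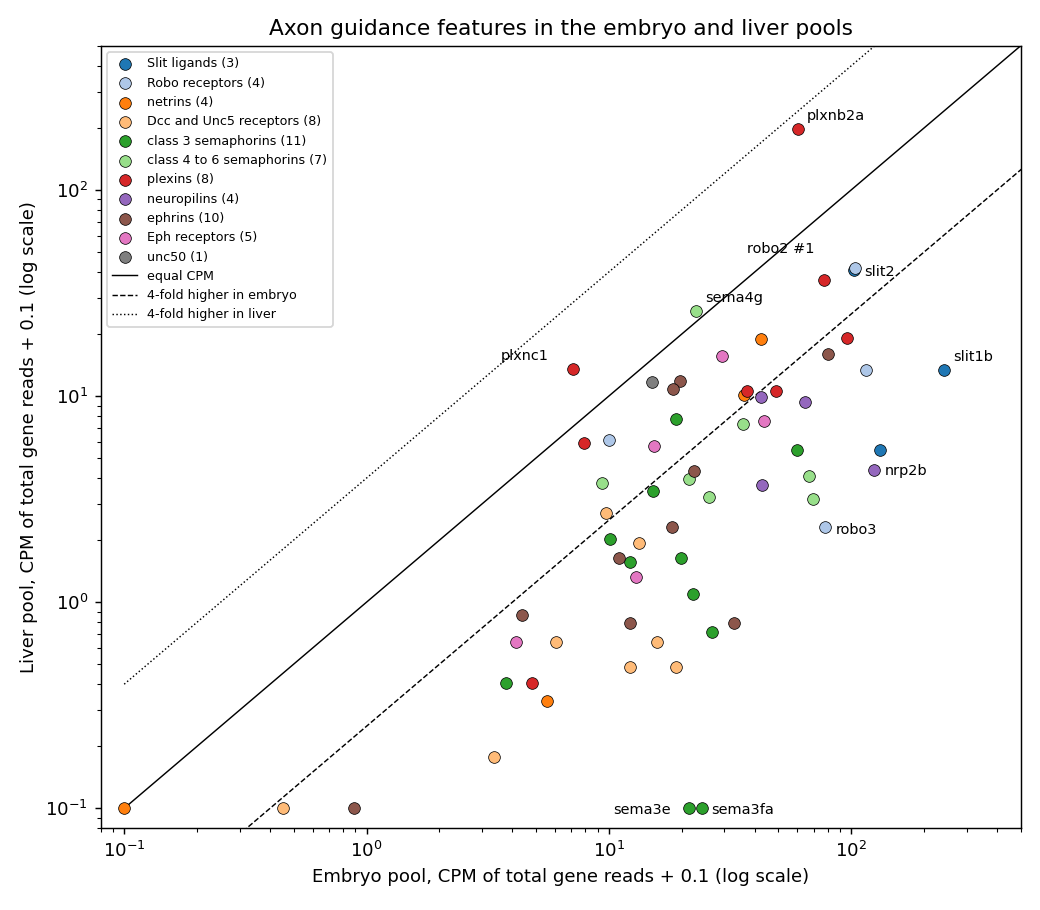
CPM of total gene reads in the embryo pool (x axis) and the liver pool (y axis), each plus 0.1 and on log scales, 1 point per guidance feature coloured by family, with lines at equal CPM and at 4-fold in either direction. Most points lie below the line of equal CPM, plxnb2a lies above it at 60.3 and 197 CPM, and sema3e and sema3fa lie at 0 in the liver pool.

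The number of calls rested on how the libraries were scaled. Trimmed-mean (TMM) factors moved every ratio toward the liver pool by 2.55-fold and median-of-ratios size factors by 2.61-fold. With TMM factors 14 of the 62 features were higher in the embryo pool (15.8% of all measured features) and 1, plxnb2a, was higher in the liver pool (8.06%), and the median was -1.47 against -0.25 for all measured features. Size factors also gave 14 and 1 calls, against 15.5% and 8.19% of all measured features. The 14 with TMM factors were slit1b, slit3, robo3, unc5b, unc5da, unc5db, sema3d, sema3e, sema3fa, sema3gb, sema5a, sema6a number 1, nrp2b and efna2. Features within 2.55-fold turned to the liver side, 12 in all: slit2, both robo2 features, ntn1a, sema3ab, sema4e, plxna4, plxnb1b, efna3a, efna3b, ephb4a and unc50.

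Much of the liver signal of these genes lay outside exons. Exon reads made up 63.4% (62.3 to 64.4) of the guidance counts in the liver pool, where they were 90.1% of all counts, and 65.3% (64.7 to 65.9) in the embryo pool, where they were 85.6% of all counts. Without plxnb2a, which held 2567 of the 8372 liver counts, the liver share was 47.8%. Of the 48 features with at least 10 counts in both pools, 40 had a lower exon share in the liver pool. This number was not counted over all features, but their median share was lower in liver as well. Among features with at least 10 counts in a pool it was 88.2% in embryos and 83.2% in liver, against 76.2% and 54.0% for guidance features. Features that span 100 kb or more had an exon share of 38.2% (36.6 to 39.8) in liver and 60.5% (59.7 to 61.2) in the embryo pool. Shorter features had 81.9% (80.7 to 82.9) in liver against 74.3% (73.4 to 75.1) in embryos, or 62.8% and 72.4% without plxnb2a. No such split by span was made over all features. Among features with at least 10 liver counts the median span was 61.1 kb for guidance features and 16.7 kb for all. No exon read was found in the liver pool for 19 of the 65 features, all of which had an exon length. Of all 27098 features 8613 had none. As 1637 of all features had no exon length, these 2 shares are not compared. Gene reads were present in the liver pool for 14 of the 19 guidance features. Reads across exon-exon junctions, which come from spliced RNA, were found for 58 features in embryos and 39 in the liver pool. They were absent for 7 and 26 of the 65 guidance features. In each pool this was a lower share than the 8077 and 12920 of all 27098 features, which include those with no exon length.

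Counting exon reads alone widened the distance between the pools. With exon reads 43 of 61 measured features were higher in the embryo pool, against 36.4% of all features measured that way, and none was higher in the liver pool (3.38%). The 43 took in all 35 called from gene reads and added slit2, ntn1b, efna3a, efna5b, efnb1, sema3ga, plxna1 number 1 and sema6a number 2. With TMM factors on exon reads 26 were higher in the embryo pool (20.3% of all features) and 2, plxnb2a and sema4g, in the liver pool (7.84%). At 2-fold in place of 4-fold, gene reads called 49 features toward embryo (52.4% of all measured features) and 1 toward liver (6.46%). The median with exon reads was -3.48, against -1.90 for all measured features. In these families both kinds of reads are therefore given below, gene reads being all reads of the gene region and exon reads a part of them.

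**Figure D2:**
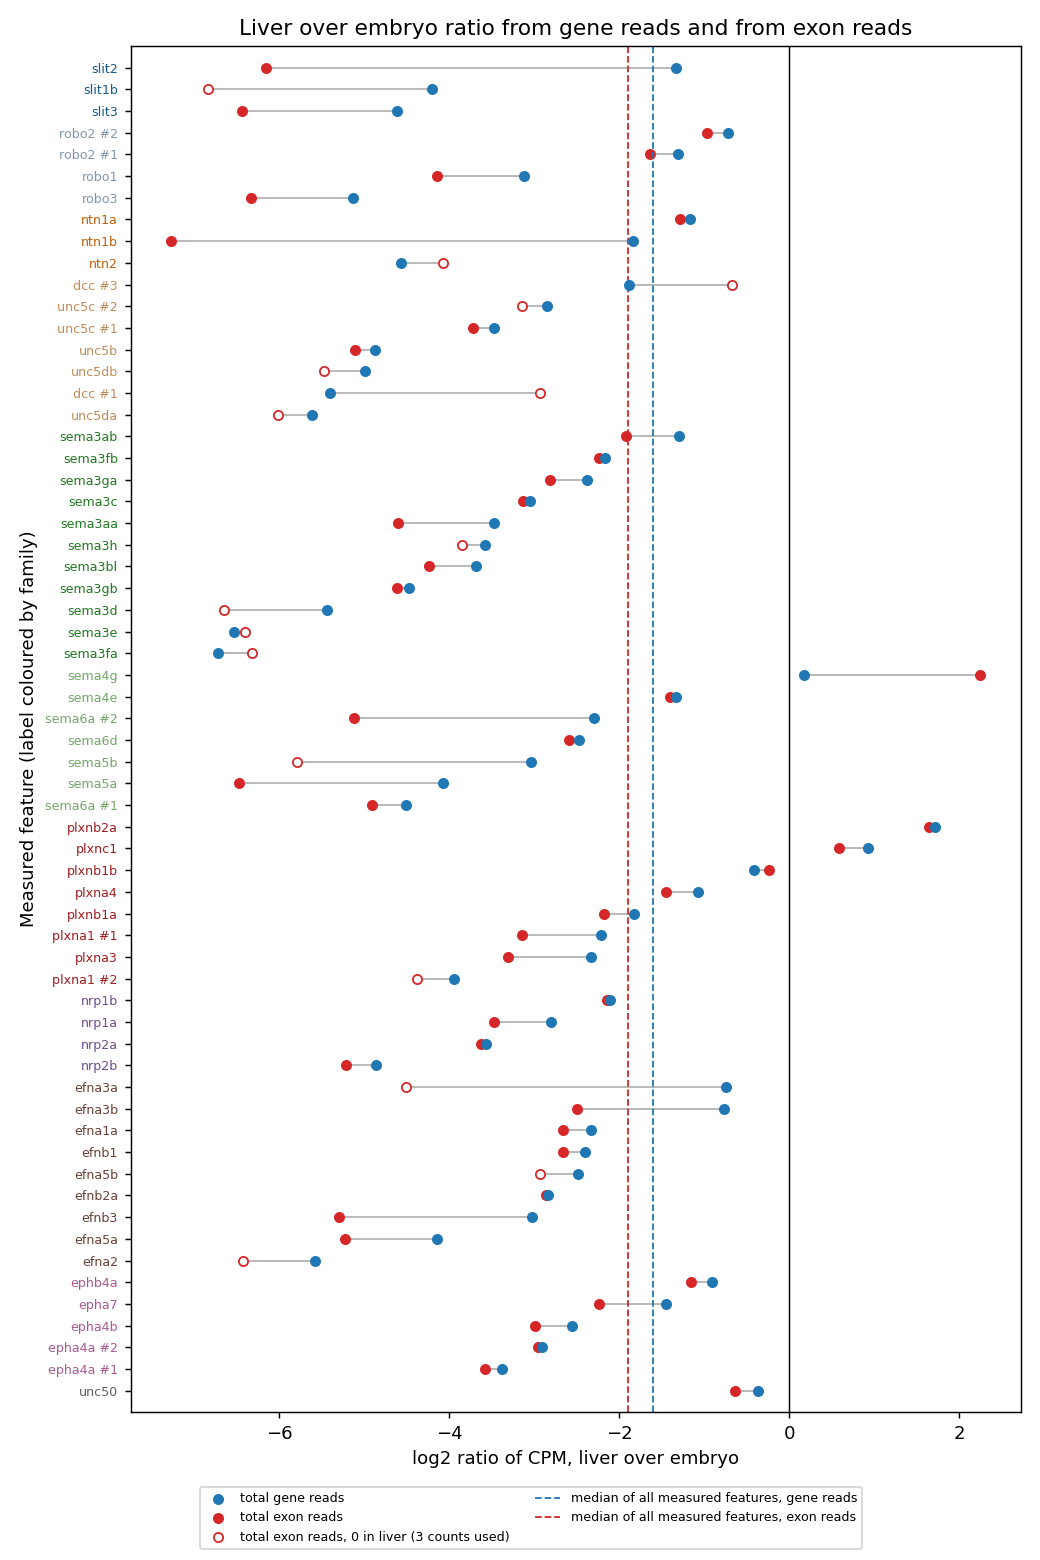
The log2 ratio of CPM, liver over embryo, for each of the 62 measured features (rows, label coloured by family, # being the number by exon length), from total gene reads in blue and total exon reads in red, open where the liver pool had no exon read and 3 counts were used. Dashed lines mark the medians of all measured features, -1.60 and -1.90, and the long lines of slit2, ntn1b and efna3a show where the kind of reads matters.

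**Figure D3:**
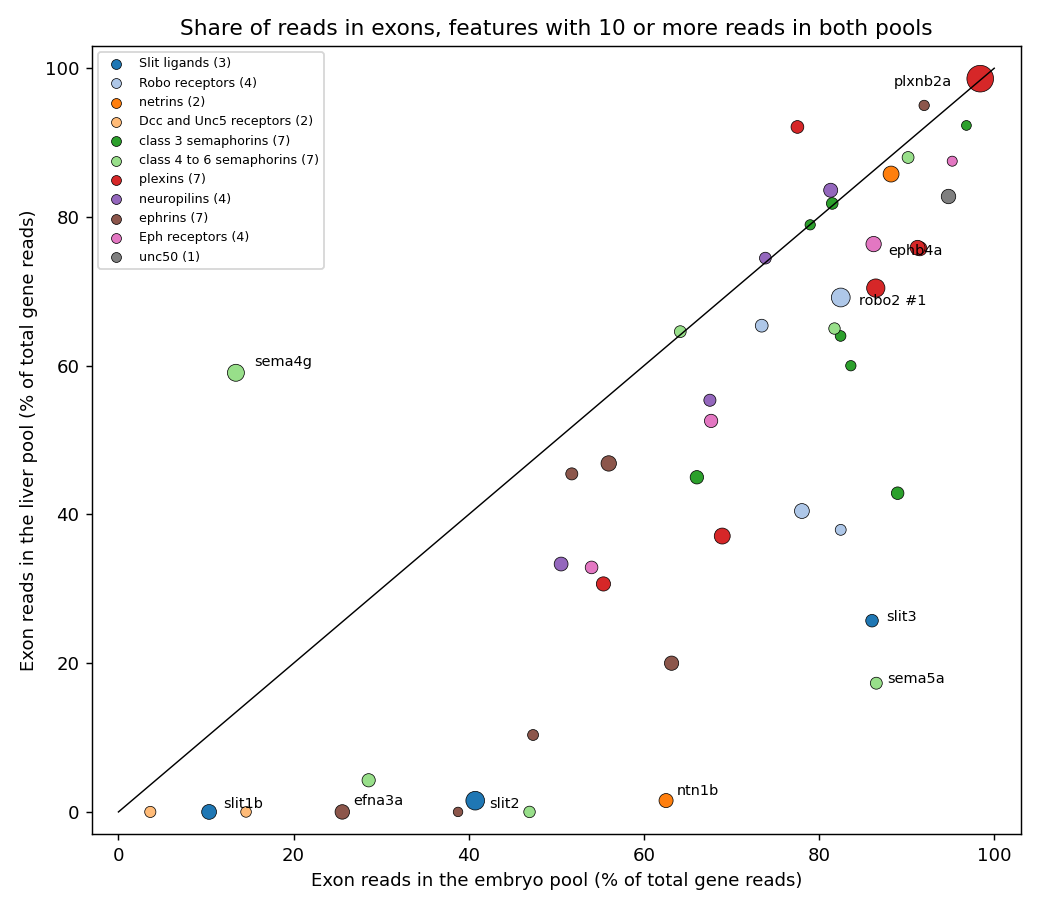
Exon reads as a percentage of total gene reads in the embryo pool (x axis) and the liver pool (y axis) for the 48 features with at least 10 gene reads in both pools, with point area growing with liver reads and the line marking equal shares. Of these points 40 lie below the line, slit1b and efna3a lie at 0 in the liver pool, and sema4g lies above the line at 13.4% and 59.1%.

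The Slit ligands, midline repellents of commissural axons, had exon reads almost only in the embryo pool. For slit3 there were 1505 embryo counts and 70 liver counts, a 24.5-fold difference (19.3 to 31.6), and 1295 and 18 exon reads. For slit1b there were 2763 embryo counts, the most of any guidance feature, and 172 liver counts, or 18.3-fold (15.7 to 21.5). Only 10.4% of those embryo counts and none of the liver counts lay in exons, which left 286 and 0 exon reads. Taking 3 counts for 0, slit1b was 115-fold higher in the embryo pool by exon reads (lower limit of the interval 92.5). The slit2 feature, with 1166 embryo counts and 529 liver counts, was called in neither direction from gene reads, at 2.52-fold (2.27 to 2.79). Its exon reads were 475 and 8 and its junction reads 157 and 3, and by exon reads it was 71.3-fold higher in the embryo pool (35.9 to 166). Reads with 1 position were 15.4% of the slit2 counts in embryos and 16.6% in the liver pool, so most of its gene reads could also have come from elsewhere. All 3 Slit genes together had 2056 embryo exon reads and 26 liver exon reads.

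Of the 4 features of Robo receptors, which bind Slits, robo1 and robo3 were called higher in the embryo pool by both kinds of reads and the robo2 features by neither. Of all measured features 30.9% were so called by gene reads and 36.4% by exon reads. By gene reads with TMM factors (15.8%) robo3 alone kept the call. The robo2 gene, needed for retinal axon pathfinding in zebrafish, had the highest level per length of all guidance features in the embryo pool, at 21.3 RPKM (exon reads per kilobase of exon and 1000000 reads) for its number 1 feature, and 7.18 RPKM in the liver pool. That feature had 1187 embryo counts and 545 liver counts, 2.49-fold (2.24 to 2.76) and turned by TMM factors, with 234 and 83 junction reads. The number 2 feature had 113 and 78 counts, with 12.8 and 6.90 RPKM. For robo1 there were 1316 embryo counts and 173 liver counts, or 8.68-fold (7.40 to 10.2), and 1027 and 70 exon reads. The receptor gene robo3, which in vertebrates controls midline crossing, had 890 and 29 counts, was 35.0-fold higher in the embryo pool (24.2 to 52.6) and had 190 junction reads against 1. Within the family, robo2 number 1 thus had 377 liver exon reads where robo3 had 11.

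Among the netrins, secreted attractants and repellents, the duplicates ntn1a and ntn1b lay much farther apart by exon reads than by gene reads. For ntn1a there were 484 embryo counts and 246 liver counts, 2.25-fold (1.92 to 2.63) and turned by TMM factors, of which 427 and 211 were exon reads. Its junction reads were few in both pools, 7 and 1. For ntn1b there were 411 and 131 counts, 3.58-fold (2.93 to 4.39), but 257 and 2 exon reads, 154-fold (42.3 to 1281). The ntn2 feature had 62 and 3 counts, 23.6-fold (7.70 to 117), and ntn4, a feature with 1 exon of 274 bases, had no count in either pool.

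The netrin receptors had few exon reads in the liver pool. Repulsive receptors of the Unc5 group were called higher in the embryo pool in all 5 features (30.9% of all measured features). With TMM factors (15.8%) unc5da, unc5db and unc5b kept the call and neither unc5c feature did. The unc5da feature had 215 embryo counts and 5 liver counts at 49.1-fold (20.7 to 153). For unc5db there were 139 and 5 counts at 31.7-fold (13.3 to 99.2), and for unc5b 179 and 7 counts at 29.2-fold (13.9 to 73.6). The unc5c features had 68 and 7 counts for number 1 and 151 and 24 counts for number 2. The attractive receptor gene dcc was split over 3 features, with 37 embryo counts and 1 liver count for number 1, 42.2-fold (7.12 to 1712), 4 and 0 for number 2 and 110 and 34 for number 3. No more than 4 of the counts of dcc number 3 in either pool were exon reads. Over the 8 features of both receptor groups there were 502 embryo exon reads and 10 liver exon reads, and no junction read in the liver pool. The unc50 feature, the name that matches by letters, had 171 and 151 counts and 11.5 and 7.78 RPKM.

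The class 3 semaphorins, secreted repellents, included sema3e and sema3fa, which had no liver read at all. For sema3fa there were 276 counts in embryos against 0 in liver, 105-fold when 3 counts are taken for 0 (lower limit of the interval 84.8). For sema3e, a repellent of endothelial cells in mice, there were 243 and 0 counts, 92.4-fold on the same footing (lower limit 74.6). For sema3d there were 303 and 8 counts, 43.2-fold (21.7 to 101), and no liver exon read. The sema3gb gene had 252 and 13 counts, 22.1-fold (12.7 to 42.1), sema3bl 226 and 20, sema3c 138 and 19, and sema3h 42 and 4, and each was called higher in the embryo pool. The highest level per length in the embryo pool was that of sema3aa, at 16.9 RPKM against 0.733 in the liver pool, with 680 and 70 counts, 11.1-fold (8.66 to 14.4). Called in neither direction were sema3ab with 215 and 100 counts, sema3fb with 173 and 44 and sema3ga with 114 and 25. The 11 class 3 features together had 2222 embryo exon reads and 166 liver exon reads. By gene reads 8 of the 11 were called higher in the embryo pool (30.9% of all measured features). With TMM factors (15.8%) sema3d, sema3e, sema3fa and sema3gb kept the call.

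Semaphorins of classes 4 to 6, which are membrane proteins, ranged from strong embryo enrichment to the most liver-weighted exon ratio among the 65 features taken by name. For sema6a number 1 there were 795 embryo counts and 40 liver counts, 22.7-fold (16.5 to 32.0), and 19.5 RPKM against 0.683. The number 2 feature of sema6a had 406 and 94 counts and 116 and 4 exon reads. For sema5a there were 765 and 52 counts, 16.8-fold (12.7 to 22.7), with 662 and 9 exon reads, and for sema5b 294 and 41 counts, with 138 and 0 exon reads. The sema6d feature had 244 and 50 counts, 5.57-fold (4.09 to 7.71), and sema4e had 106 and 48, of which 38.7% and 47.9% had 1 position. Another feature, zgc:112012, bears the current RefSeq symbol sema6d and is not among the 65. It had 467 and 86 counts, 6.20-fold (4.91 to 7.89).

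The exception was sema4g. It had 261 embryo counts and 337 liver counts, a liver over embryo ratio of 1.13 (0.960 to 1.34). Its exon reads were 35 in embryos and 199 in the liver pool, a ratio of 4.73 (3.29 to 6.99), and its junction reads 15 and 40. With exon reads it was not called, since the interval reached below 4-fold, and it was called higher in the liver pool when TMM factors were added. In the embryo pool 13.4% of its reads lay in exons and 62.8% had 1 position. In the liver pool these shares were 59.1% and 78.9%.

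Plexins, the semaphorin receptors, differed little between the pools when summed, through 1 of their members. Together they had 3871 embryo counts and 3819 liver counts, 1.16-fold higher in the embryo pool (1.11 to 1.21), a direction that TMM factors turned. Without plxnb2a the sums were 3183 and 1252 counts, 2.90-fold higher in the embryo pool (2.72 to 3.10). A B-type receptor gene, plxnb2a, carried 2567 of those liver counts against 688 embryo counts. Its liver over embryo ratio was 3.27 (3.0 to 3.56), below the 4-fold rule with library totals and called with TMM factors at 8.35 (7.67 to 9.09). At 34.7 RPKM it had the highest level per length of the guidance features in the liver pool, above 95.4% of all features with an exon length, and at 10.6 RPKM ranked 20 among them in the embryo pool. Exon reads were 98.4% of its embryo counts and 98.6% of its liver counts, and it had 176 and 542 junction reads. Reads with 1 position were 88.8% of its embryo counts and 77.3% of its liver counts, and by these reads alone the ratio was 3.02 (2.76 to 3.32).

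The other plexins lay on both sides. The semaphorin 7A receptor gene plxnc1 had 80 embryo counts and 174 liver counts, a ratio of 1.91 (1.45 to 2.52), with 73 and 132 exon reads. For plxnb1b there were 89 and 76 counts, 1.34-fold higher in the embryo pool with an interval that held 1 (0.973 to 1.84) and turned by TMM factors. For plxnb1a there were 424 and 136 counts, 3.56-fold (2.93 to 4.35). Among A-type plexins, which pair with neuropilins, plxna4 had 880 and 477 counts, 2.11-fold (1.88 to 2.36) and turned by TMM factors, and 11.7 and 4.52 RPKM. The plxna3 gene had 1098 and 248 counts, 5.05-fold (4.40 to 5.82), with 757 and 92 exon reads. The plxna1 features had 558 and 137 counts for number 1 and 54 and 4 for number 2.

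Neuropilins, the coreceptors of class 3 semaphorins and of vascular growth factors, were all on the embryo side under each scaling. For nrp2b there were 1420 embryo counts and 56 liver counts, 28.9-fold (22.2 to 38.5), and 17.6 RPKM against 0.499. For nrp2a there were 486 and 47 counts, 11.8-fold (8.74 to 16.3), for nrp1a 734 and 120, 6.98-fold (5.75 to 8.54), and for nrp1b 482 and 128, 4.30-fold (3.53 to 5.26), which was not called. Together the family was 10.2-fold higher in the embryo pool (9.09 to 11.4). By gene reads 3 of the 4 were called higher in the embryo pool (30.9% of all measured features). With TMM factors (15.8%) nrp2b alone kept the call.

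Of 9 measured ephrin features, 5 were called higher in the embryo pool by gene reads (30.9% of all measured features) and 8 by exon reads (36.4%), but 1, efna2, by gene reads with TMM factors (15.8%). The GPI-anchored ephrin gene efna1a had 911 embryo counts and 207 liver counts, 5.02-fold (4.31 to 5.87), and the highest level per length of its family in both pools, 16.8 and 2.80 RPKM. For efna2 there were 375 and 9 counts, 47.6-fold (24.8 to 105), and for efna5a 139 and 9. By gene reads efna3a, with 223 and 152 counts, and efna3b, with 209 and 140, differed little between the pools, at 1.67-fold (1.36 to 2.07) and 1.70-fold (1.37 to 2.13), and TMM factors turned both. Exon reads were 57 and 0 for efna3a and 132 and 28 for efna3b, and reads with 1 position were 27.0% of the efna3a liver counts. Of the transmembrane ephrins, efnb2a, a marker of arterial endothelium, had 125 and 20 counts, 7.13-fold (4.43 to 12.1), efnb1 had 255 and 55, and efnb3 had 207 and 29. The efna5b feature had 49 and 10 counts, and efnb2b, with 9 and 0, did not reach the count minimum.

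Of the Eph receptors, ephb4a, a marker of venous endothelium that binds efnb2a, stayed closest between the pools. It had 334 embryo counts and 203 liver counts, 1.88-fold (1.57 to 2.25) and turned by TMM factors, with 63 and 46 junction reads and 9.19 and 4.33 RPKM. The A-type receptor gene epha4b had 498 and 97 counts, 5.86-fold (4.71 to 7.36), and epha4a number 1 had 146 and 16, 10.4-fold (6.20 to 18.7), at 13.7 RPKM the highest embryo level per length of the family. The number 2 feature of epha4a had 46 and 7 counts and epha7 174 and 73, and neither was called. Of the 5 Eph receptor features 2 were thus called higher in the embryo pool (30.9% of all measured features), and with TMM factors (15.8%) none was. The names taken here held no Eph B receptor other than ephb4a.

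Duplicate genes retained from the teleost genome duplication often differed from each other in how far they leaned to the embryo pool. Comparing the ratios of a pair cancels the library scaling, so these differences are the same under every scaling. In 7 of the 9 pairs with at least 100 counts for each gene, the 95% interval of the ratio of ratios excluded 1. All 7 kept that in the same direction with exon reads. Pairs of unrelated genes were not compared in this way, so whether duplicates differ more or less often than those was not tested. The largest gap was that of sema3fa with no liver count and sema3fb with 44, where the liver over embryo ratio of sema3fb was at least 17.9-fold that of sema3fa by the lower limit of the interval. The sema3ab ratio was 4.51-fold that of sema3aa (3.16 to 6.46), the sema3ga ratio 4.23-fold that of sema3gb (2.0 to 9.36), the plxnb1b ratio 2.66-fold that of plxnb1a (1.82 to 3.88) and the nrp2a ratio 2.45-fold that of nrp2b (1.60 to 3.73). For ntn1a over ntn1b the figure was 1.59 (1.23 to 2.06) by gene reads and 63.4 (17.1 to 531) by exon reads. The unc5da and unc5db ratios did not differ beyond counting error, at 0.647 (0.146 to 2.87). Neither did those of efna3a and efna3b by gene reads, at 1.02 (0.748 to 1.39), whereas by exon reads the efna3b ratio was at least 2.92-fold that of efna3a.

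**Figure D4:**
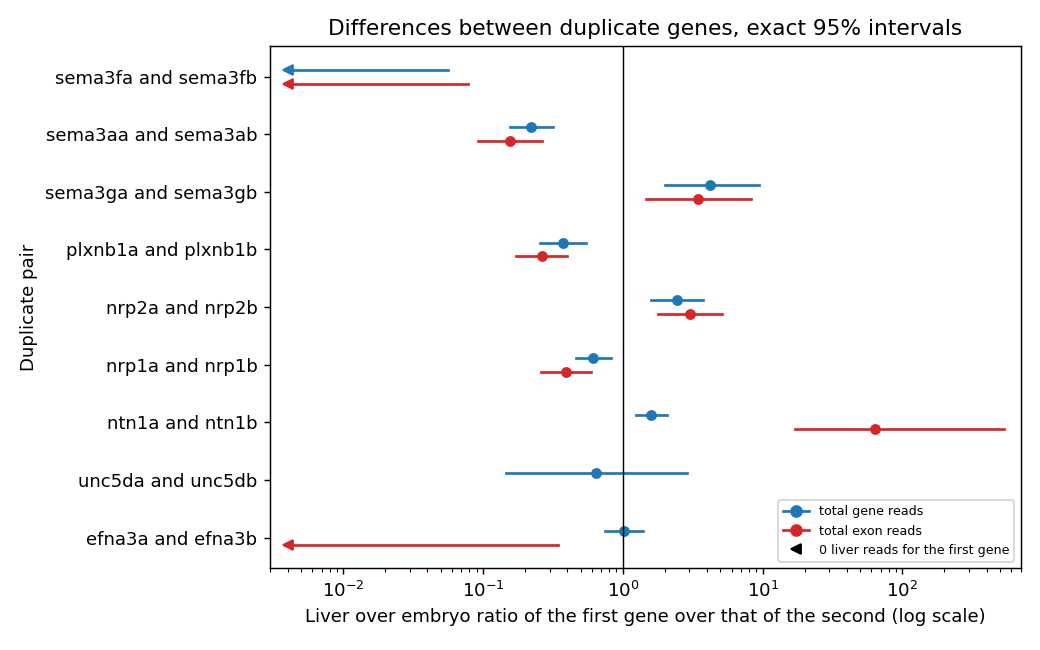
The liver over embryo ratio of the first gene of each duplicate pair divided by that of the second (x axis, log scale), with exact 95% intervals, for the 9 pairs with at least 100 counts for each gene, from gene reads in blue and exon reads in red. Arrowheads mark pairs in which the first gene had no liver read, and no exon value is drawn for unc5da and unc5db, which both had none there.

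Other genes of guidance signalling, from adhesion receptors to cytoskeletal effectors, leaned to the embryo pool as well. Of 107 genes listed, 85 matched 1 feature and 83 were measured, of which 47 were called higher in embryos (30.9% of all measured features) and 1 in the liver pool (3.35%), with a median log2 ratio of -2.61. Among those with the most counts in the embryo pool were the collapsin response mediator gene dpysl3 with 4166 embryo counts and 48 liver counts, and the actin-severing cofilin gene cfl1 with 2038 and 123. In the liver pool they were the cytoskeletal kinase gene rock2b with 649 and 3813 counts, the adhesion receptor gene dscama with 945 and 1298, and the LIM kinase gene limk2 with 581 and 945. Per length the order differed. In the liver pool dscama had 11.7 RPKM, below cdc42 at 23.0 and rhoaa at 21.0. In the embryo pool dpysl3 had 71.5 RPKM, below rhoaa at 76.4. The call toward the liver pool was that of rock2b, 5.15-fold (4.74 to 5.60), and it was lost with exon reads, which were 406 and 1542. With TMM factors 36 of the list were higher in the embryo pool, where 15.8% of all measured features were, and 1 in the liver pool (8.06%).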

How the data were processed

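RNA sequencing of 1 embryo pool and 1 liver pool was analysed from gene tables of 27098 features. The authors deposited whole-number read counts per gene region, split per the file headers into unique reads (1 position) and total reads (several positions included), with exon and exon-exon reads apart. The authors' deposited RPKM equalled total exon reads per exon length and per 1000000 total gene reads. Deposited median coverage, a signal, was not used. Aligner, annotation and genome build: not given in the sources used here. Coordinates and sequences were not used.

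Total gene reads were scaled to CPM by library totals. Ratios carry exact 95% intervals (Clopper-Pearson on the conditional binomial, scipy 1.17.1), and those between duplicates exact conditional odds ratio intervals. A count of 0 was set to a floor of 3 counts per library for ratios with a 0 and for medians, or 0.263 CPM for embryos and 0.230 CPM for liver. Lower limits of intervals used the count of 0 itself. PCR copies or mates counted apart would make the intervals too narrow. Alternatives were edgeR 4.0.16 TMM factors, DESeq2 1.42.0 size factors, unique reads, exon reads, count minimums and a 2-fold rule. Current symbols, and nothing else, came from a RefSeq table (GRCz12tu).

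The members and lists were chosen with earlier results of these data known. dcc was taken from 3 features whose names carry a position. Named with their statistics were the highest RPKM of each family in each pool, features with at least 100 liver counts, the 10 embryo calls with the farthest interval bound, and the 5 widest and 3 closest duplicate pairs. Other features are named to account for every member. A result on 1 other guidance gene is not reported here.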

Additional observations from a re-analysis of the deposited data

How the results depend on the processing

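Scaling moved the counts of calls most: with TMM factors and with size factors alike 15 features were called, 14 higher in the embryo pool and 1 (plxnb2a) in the liver pool, with medians of -1.47 and -1.44 and a summed RPKM ratio of liver over embryo of 0.541 and 0.553 in place of 0.212. Total exon reads with TMM factors, an alternative chosen after seeing the data, gave 28 calls, 26 embryo and 2 liver, with a median of -2.08. Exon reads gave a median of -3.48, unique exon reads -3.46 and a minimum of 50 counts or of 1 count -2.68. The 2-fold rule called 1 feature higher in the liver pool, and so did adding the features matched by current symbol. With unique reads the exon share was 70.3% for embryos and 70.8% for liver, against 65.3% and 63.4%. No guidance feature called from gene reads was called in the opposite direction under any alternative run. For most alternatives this was fixed in advance. The scaling factors moved ratios by less than the 4-fold of a call, and the count minimums and the 2-fold rule kept the same ratios. Unique and exon reads are parts of the same counts. The median stayed below 0 under each alternative. Leaving out unc50 left 35 embryo calls, and leaving out the dcc features left 34. Leaving out a replicate could not be run with 1 library per source. No paired analysis was possible because each source has 1 library.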

Other observations

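A further 30 features bear clone or locus names in the files and current RefSeq symbols of the same families, and 14 of them were called higher in embryos (30.9% of all measured features) and 1 in liver (3.35%). With TMM factors these counts were 8 (15.8%) and 4 (8.06%). The examples below were chosen after their values were seen, and counts are given for embryos first. The liver call was that of the plexin gene plxnb2a.3 (si:dkey-183c2.4 in the files), whose counts were 18 and 472, a liver over embryo ratio of 23.0 (14.4 to 39.1). The symbol plxnb2a.2 (si:ch211-127b11.1 in the files) had 10 and 77 counts, a ratio of 6.75 (3.48 to 14.6). Summed with plxnb2a, these features had 716 embryo counts and 3116 liver counts, a ratio of 3.81 (3.51 to 4.14), or 3.34 (3.05 to 3.65) from reads with 1 position. Among class 4 semaphorins, whose receptors include B-type plexins, sema4bb (LOC561146 in the files) had 100 and 471 counts, a ratio of 4.13 (3.32 to 5.17), and 11.0 RPKM in the liver pool. The venous endothelial receptor gene ephb4b (rtk8 in the files) had 154 and 276 counts, a ratio of 1.57 (1.28 to 1.92). By contrast ephb3a (ek3 in the files) had 624 and 23 counts and no liver RPKM, and ntn5 (LOC796299 in the files) had 133 and 0 counts. The sema4f feature (LOC556003 in the files) had 88 and 260 counts, but its liver RPKM was 0.147 against 3.13 in the embryo pool. It was called higher in liver by gene reads with TMM factors and higher in embryos by exon reads.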
